A study of Mus musculus with 22 samples.

Results

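The mammalian circadian clock was examined in mouse spinal cord through 10 genes: Arntl, Clock, Per1, Per2, Per3, Cry1, Cry2, Nr1d1, Nr1d2 and Dbp. They were taken by symbol from a table of RNA-seq read counts and are 10 of its 21995 genes. All 10 passed the filter on low counts in both comparisons, and none had fewer than 64 counts in any library.

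Whole spinal cords of C57BL/6 mice were sequenced in 4 groups. The aging comparison held 8 young libraries, from wild-type males of 3 to 4 months, and 8 old libraries, from wild-type males of 18 to 24 months, all made with the Roche KAPA HyperPrep kit. The disease comparison held 3 libraries from symptomatic SOD1-G93A mice, a model of amyotrophic lateral sclerosis (ALS) that carries many copies of a mutant human SOD1 transgene, and 3 from wild-type controls, all labelled 5 to 6 months and made with Illumina TruSeq. Each of these latter groups held 2 females and 1 male, and the sex of each library is not given in the labels, so it could not be a covariate. The cords were pushed out of the spine in cold buffered saline. The hour of the day at which each mouse was killed, and its light cycle, are not given in the sources used here. Nothing in the labels says which libraries were collected together, so the spread between libraries below includes any difference in collection time. Libraries carry here the name of their group and a number that follows the order of the sample numbers in the column names, and this number pairs no library of one group with one of another.

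In the clock, ARNTL (also called BMAL1) and CLOCK form a heterodimer that binds E-box sequences and switches on the Per and Cry genes, whose proteins then return to the nucleus and inhibit it. The same heterodimer drives Nr1d1 and Nr1d2, which encode the repressors REV-ERB alpha and beta; these compete with the activating ROR proteins at RORE sequences and so close a second loop on Arntl. DBP is a PAR bZIP activator that binds D-box sequences, and the levels of Dbp and Arntl peak at nearly opposite times of day in most tissues. The levels of these transcripts therefore depend on the hour at which a tissue is taken.

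The sequences these proteins read lie partly in the promoters. RefSeq promoter windows (GRCm38.p6, from 250 bases before to 50 bases after a transcription start) were matched to 9 of the 10 members, in 13 windows. They were searched on both strands for the E-box (CACGTG), the E-prime box (CACGTT), the D-box (TTANGTAA), TNGGTCA and the CRE (TGACGTCA). N stands for any base. TNGGTCA is a loose pattern for part of the RORE, so a match to it is not by itself a RORE. Of all 32851 windows, 7.15% held the E-box, 4.68% the E-prime box, 2.32% the D-box, 11% TNGGTCA and 1.79% the CRE. The Per3 window held a pair of D-boxes, which 0.198% of all windows do, together with a reversed TNGGTCA match (TGACCAA). One window of Arntl held 3 TNGGTCA matches, and 0.0609% of all windows held at least 3. Per1 held an E-box, Cry1 an E-box and an E-prime box, Cry2 an E-prime box and a reversed TNGGTCA match (TGACCAA), and Nr1d1 an E-prime box. The windows of Clock, Nr1d2 and Dbp held none of these letters. A match describes the letters only and is not evidence of binding.

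Windows of 4 members are printed as examples of these matches, which capitals mark. They are chr7:113207261-113207560 on the plus strand for Arntl (TNGGTCA matches) and chr4:151044616-151044915 on the minus strand for Per3 (D-boxes and a reversed TNGGTCA match). The others are chr11:69098699-69098998 on the plus strand for Per1 (E-box) and chr10:85185005-85185304 on the minus strand for Cry1 (reversed E-prime box, then E-box).
Arntl: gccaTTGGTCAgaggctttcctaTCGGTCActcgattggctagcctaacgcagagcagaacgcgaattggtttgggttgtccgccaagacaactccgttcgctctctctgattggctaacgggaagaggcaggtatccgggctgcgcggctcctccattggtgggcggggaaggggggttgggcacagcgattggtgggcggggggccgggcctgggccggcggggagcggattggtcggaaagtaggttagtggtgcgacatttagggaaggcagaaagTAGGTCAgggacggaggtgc
Per3: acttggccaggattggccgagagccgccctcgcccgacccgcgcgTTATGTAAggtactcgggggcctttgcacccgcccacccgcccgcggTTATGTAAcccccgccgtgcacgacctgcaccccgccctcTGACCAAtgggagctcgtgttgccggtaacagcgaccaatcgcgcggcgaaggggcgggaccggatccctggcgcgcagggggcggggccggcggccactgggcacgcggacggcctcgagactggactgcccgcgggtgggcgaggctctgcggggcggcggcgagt
Per1: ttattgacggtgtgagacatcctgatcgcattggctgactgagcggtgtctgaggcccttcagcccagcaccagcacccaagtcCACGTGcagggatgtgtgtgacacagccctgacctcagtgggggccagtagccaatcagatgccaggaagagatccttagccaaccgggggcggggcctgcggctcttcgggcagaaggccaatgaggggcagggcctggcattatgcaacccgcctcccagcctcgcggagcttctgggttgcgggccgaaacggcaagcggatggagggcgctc
Cry1: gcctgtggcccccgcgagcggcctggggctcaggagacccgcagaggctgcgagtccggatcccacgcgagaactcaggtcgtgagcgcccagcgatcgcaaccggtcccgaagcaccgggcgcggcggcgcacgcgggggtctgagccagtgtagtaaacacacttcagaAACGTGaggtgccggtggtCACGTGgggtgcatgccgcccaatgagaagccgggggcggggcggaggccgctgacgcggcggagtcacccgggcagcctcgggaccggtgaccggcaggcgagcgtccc

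Library totals ran from 5078092 to 9358055 counts in the young, from 5664869 to 9145600 in the old, from 10693060 to 13219797 in the controls and from 9675610 to 11872431 in the G93A group. Levels are given as CPM, counts scaled to a common library total after TMM normalization of the libraries, with each comparison scaled on its own; differences between groups are log2 fold changes (log2FC) with their standard error (SE), tested with edgeR's quasi-likelihood test and adjusted by Benjamini-Hochberg over all genes tested in that comparison. In aging, 26.4% of the 13647 genes tested passed an adjusted p of 0.05, and 2.22% also had a log2FC beyond 1 in either direction. The disease comparison gave shares of 33.9% and 9.7% of 14386 genes. Among the members, 2 of 10 passed in each comparison, and none had a log2FC beyond 1 in either. With only 10 members, these shares cannot be told apart from the background. The median log2FC of the members was 0.09 in aging and -0.09 in the disease comparison, and over all genes tested it was between -0.01 and 0.01 in both.

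**Figure D1:**
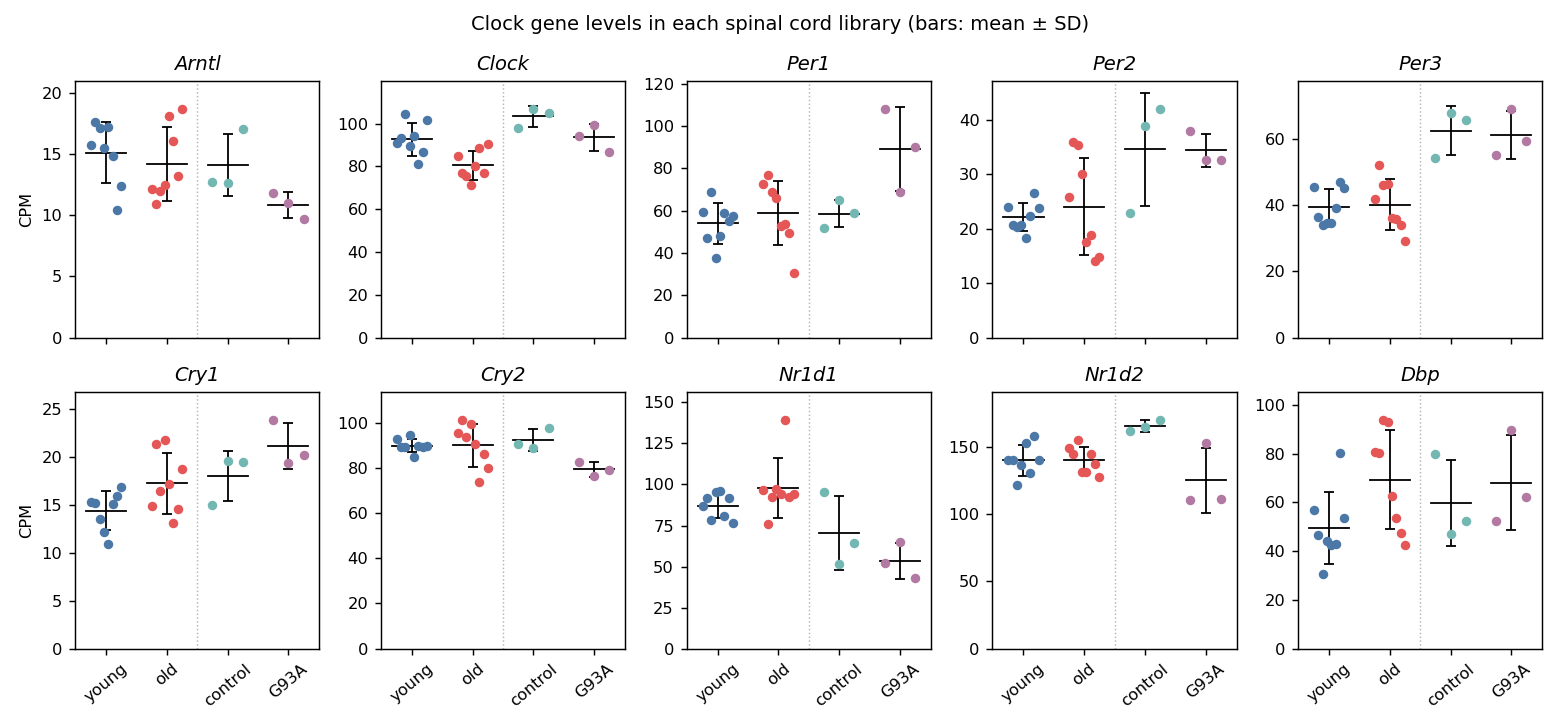
Level of each clock gene (CPM, axis from 0) in every library; points are libraries in order of their number, the long line is the group mean and the bar 1 SD, with 8 young, 8 old, 3 control and 3 G93A libraries. Points left and right of the dotted line were scaled separately and made with different kits. Of the 2 age groups, Per2 of the old spreads widest on the log2 scale (SD 0.54) and Cry2 of the young least (SD 0.047).

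Compared per transcript length, on the FPKM values that the authors deposited, the 10 genes spanned nearly an order of magnitude. In the young group the median FPKM was 31.6 for Nr1d1, 29.0 for Nr1d2, 28.9 for Dbp, 22.3 for Cry2, 12.3 for Per1, 9.32 for Clock, 7.26 for Per3, 6.31 for Arntl, 4.71 for Cry1 and 3.53 for Per2. Both REV-ERB genes, Dbp and Cry2 thus stood highest, and the range of each overlapped that of its neighbour in this order (Dbp spanned 19.1 to 52.1 and Cry2 19.96 to 23.4). The one step without overlap in the young was from Cry2 to Per1, whose highest library reached 14.9 FPKM. In the old group Dbp moved to the top, with a median of 47.8 FPKM and a range of 27.5 to 60.9, which still overlapped Nr1d1 at 28.2 to 45.1. Per1, with a highest value of 17.3 FPKM, then overlapped Cry2, whose lowest was 15.96. Among the controls Nr1d2 stood first, at a median of 34.2 FPKM, before Dbp (30.9), Cry2 (22.95) and Nr1d1 (22.4). The G93A group had Dbp first (39.5 FPKM), then Nr1d2 (23.7), and Per1 (20.03) beside Cry2 (19.9) and Nr1d1 (19.3), with overlap at each of these steps. Per2, Cry1 and Arntl were the lowest 3 in all 4 groups.

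Of the activator pair, Clock was lower in old than in young cords. Clock (chr5:76209868-76304792, minus strand, GRCm38) encodes the histone acetyltransferase partner of ARNTL. Its level ran from 81.0 through a median of 91.9 to 104 CPM in the young and from 71.2 through 78.5 to 90.4 CPM in the old. The groups overlapped, and 5 of the 8 old libraries lay below the lowest young one. Clock fell by 0.20 on the log2 scale (SE 0.057, adjusted p = 0.0105, edgeR). The call held in 16 of 16 fits that each left out 1 library. In the ALS experiment Clock was at 98.0, 107 and 105 CPM in the controls and at 94.4, 99.5 and 86.8 CPM in G93A, a log2FC of -0.14 (SE 0.087, adjusted p = 0.234, edgeR), and the groups overlapped.

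Arntl (chr7:113207465-113314126, plus strand) did not pass in either comparison. It was at 10.5, 15.6 and 17.6 CPM (lowest, median, highest) in the young and at 10.9, 12.8 and 18.7 CPM in the old, with a log2FC of -0.11 (SE 0.12, adjusted p = 0.528, edgeR). The controls held 12.7, 12.6 and 17.1 CPM and the G93A libraries 11.8, 10.98 and 9.67 CPM. All 3 G93A libraries were below all 3 controls, but the log2FC of -0.39 (SE 0.17) had an adjusted p of 0.104 (edgeR), and the log2FC was -0.23 without control library 3. How many of all genes part in this way was not counted. With 3 libraries a group, a lack of overlap is therefore only a description, here and for the members below.

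The Period genes encode the PAS-domain repressors of the loop; Per1 and Per2 are also induced directly by cyclic AMP and glucocorticoid signals. In aging none of the 3 passed: log2FC was 0.14 for Per1 (SE 0.14, adjusted p = 0.486, edgeR), 0.14 for Per2 (SE 0.16, adjusted p = 0.554) and 0.04 for Per3 (SE 0.10, adjusted p = 0.820). Per1 ran from 37.5 through 56.3 to 68.8 CPM in the young and from 30.6 through 59.9 to 76.97 CPM in the old, and Per3 from 33.996 through 37.8 to 46.95 CPM and from 29.2 through 38.9 to 52.1 CPM. All 3 genes overlapped between the ages and spanned a wider range in the old. Per2 (chr1:91415982-91459324, minus strand) ran from 18.3 through 21.5 to 26.5 CPM in the young and from 14.0 through 22.3 to 35.9 CPM in the old. The SD of its log2 CPM was 0.17 in the young and 0.54 in the old, higher than in 62.6% and 96.2% of all genes; the difference in spread was not tested.

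Per1 rose in G93A cords. Per1 (chr11:69095217-69109960, plus strand) was at 51.9, 64.8 and 58.8 CPM in the controls and at 108, 68.6 and 90.1 CPM in G93A, so that the groups did not overlap. The log2FC was 0.61 (SE 0.16, adjusted p = 0.0189, edgeR). It stayed called in 3 of the 6 fits without 1 library and lost the call without control library 1, control library 3 or G93A library 3, with adjusted p from 0.0657 to 0.0765. Per2 and Per3 gave log2FC of -0.01 (SE 0.20, adjusted p = 0.967) and -0.03 (SE 0.12, adjusted p = 0.848). Control library 1 held Per2 at 22.8 CPM, where the other two controls held 38.9 and 42.0 CPM, and G93A held 37.9, 32.5 and 32.6 CPM. Per3 (chr4:151003652-151044665, minus strand) was at 54.2, 67.9 and 65.6 CPM in the controls and at 55.1, 69.2 and 59.3 CPM in G93A. Its gene overlaps Camta1 on the same strand, with no shared exon bases.

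The cryptochromes, the photolyase-related repressors that bind CLOCK and ARNTL, did not pass in either comparison. Cry1 (chr10:85131700-85185064, minus strand) ran from 10.9 through 15.1 to 16.9 CPM in the young and from 13.1 through 16.8 to 21.7 CPM in the old. Its aging log2FC of 0.28 (SE 0.11) had an adjusted p of 0.0632 (edgeR), and it passed without old library 6 (0.0195) or without old library 7 (0.0486). Cry2 (chr2:92403646-92434043, minus strand) was the steadiest member in the young, from 84.8 through 89.3 to 94.6 CPM; only 2.15% of all genes had a smaller SD of log2 CPM there. In the old group it ran from 73.7 through 92.1 to 101 CPM, with a log2FC of 0.01 (SE 0.055, adjusted p = 0.942). Between G93A and control cords, Cry2 was at 90.5, 88.6 and 97.6 CPM in the controls and at 82.7, 76.3 and 78.9 CPM in G93A. The groups did not overlap, yet the log2FC of -0.22 (SE 0.082) had an adjusted p of 0.0682 (edgeR); in 1 edgeR fit of all 4 groups it was 0.0220. Cry1 was at 14.99, 19.6 and 19.4 CPM in the controls and at 23.9, 19.3 and 20.2 CPM in G93A, with overlap and a log2FC of 0.23 (SE 0.15, adjusted p = 0.252).

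Of the REV-ERB genes, Nr1d2 was lower in G93A cords. Nr1d2 (chr14:18204054-18239127, minus strand) was at 162, 165 and 170 CPM in the controls and at 111, 153 and 111 CPM in G93A. G93A libraries 1 and 3 were far below the controls and library 2 just below them. G93A library 2 also had the lowest Per1 of its group and stood apart in the markers of cell types: its neuron markers summed to 4068 CPM against 2287 and 2659 in G93A libraries 1 and 3, its microglial markers to 707 against 1337 and 1078, and its astrocyte markers to 10822 against 17296 and 15302. The part of this difference in Nr1d2 and Per1 was not tested. Nr1d2 fell by 0.41 on the log2 scale (SE 0.13, adjusted p = 0.0401, edgeR), a call that held in only 1 of 6 fits without 1 library, the one without G93A library 2; the other 5 gave adjusted p from 0.0888 to 0.158. In aging its level was 121, 140 and 158 CPM (lowest, median, highest) in the young and 128, 141 and 155 CPM in the old, and the fitted log2FC rounded to 0.00 (9.53e-05, SE 0.053).

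Nr1d1 (chr11:98767932-98775333, minus strand) was at 95.4, 51.4 and 64.4 CPM in the controls and at 52.4, 65.1 and 42.9 CPM in G93A. Control library 1 stood high and the other controls lay within the G93A range. The log2FC was -0.40 (SE 0.22, adjusted p = 0.205, edgeR), and -0.12 without control library 1. In aging it was 0.16 (SE 0.085, adjusted p = 0.174), from 76.7, 89.2 and 95.8 CPM in the young to 75.9, 94.1 and 140 CPM in the old. The high value is old library 6, without which the log2FC was 0.07. Nr1d1 shares 263 exon bases with Thra, the thyroid hormone receptor alpha gene on the opposite strand, and whether the counting used strand is not stated. Thra, looked up after the values were seen, had a log2FC of 0.12 in aging (adjusted p = 0.0305) and 0.01 in the disease comparison (adjusted p = 0.921).

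Whether the members changed differently in the 2 comparisons was tested as the disease log2FC minus the aging log2FC, in 1 edgeR fit of all 22 libraries. Over all 14502 genes 25.8% passed. Again 2 of the 10 members passed, both REV-ERB genes: Nr1d1 at -0.58 (SE 0.21, adjusted p = 0.0425) and Nr1d2 at -0.43 (SE 0.12, adjusted p = 0.00915). Nr1d2 kept the call in 20 of 22 fits without 1 library, losing it without G93A library 1 or 3 (adjusted p = 0.0599 and 0.0567). Nr1d1 kept it in 12 of 22. Among the fits that lost it were those without control library 1, where its difference shrank to -0.31, and without old library 6. Per1, called in the disease comparison, did not pass this test (0.44, SE 0.26, adjusted p = 0.216), nor did Clock (0.03, SE 0.10, adjusted p = 0.861) or Dbp (-0.33, SE 0.33, adjusted p = 0.509). Kit, sex and experiment coincide with the comparison and cannot be told apart from it.

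**Figure D2:**
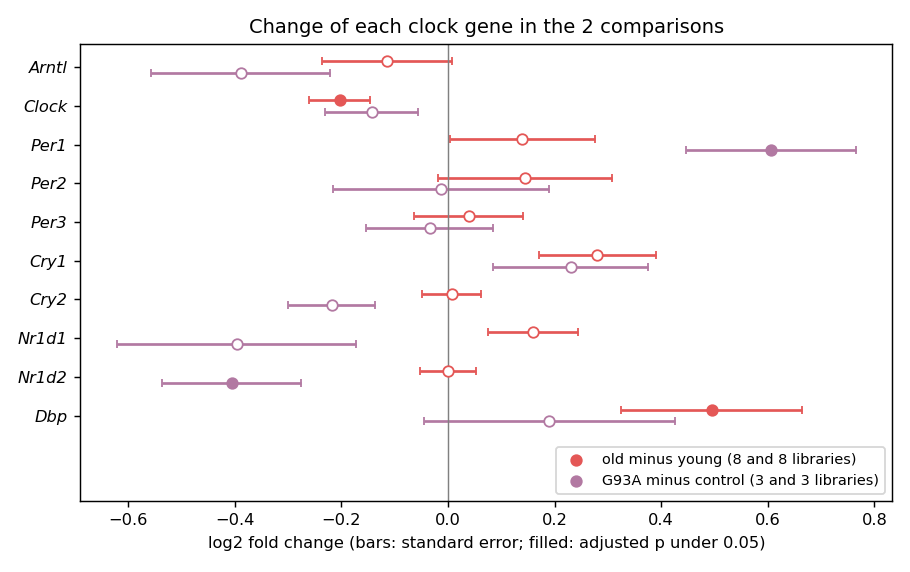
Log2 fold change of each clock gene (points) with its standard error (bars) for old minus young and G93A minus control; filled points have an adjusted p under 0.05. Clock (-0.20) and Dbp (0.49) are filled in aging and Per1 (0.61) and Nr1d2 (-0.41) in the disease comparison.

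Dbp, the output gene, was higher in old cords. Dbp (chr7:45705088-45710203, plus strand) held 56.7, 46.4, 30.5, 44.3, 42.4, 42.8, 80.4 and 53.8 CPM in young libraries 1 to 8 and 80.6, 80.5, 94.05, 92.96, 62.7, 53.5, 47.5 and 42.5 CPM in old libraries 1 to 8. Old libraries 1 to 4 were all above the highest young library, and old libraries 5 to 8 were within the young range. The log2FC was 0.49 (SE 0.17, adjusted p = 0.0332, edgeR). The call was lost with DESeq2 (adjusted p = 0.0868), with limma on the deposited log2 FPKM values (0.0741) and in 9 of 16 fits without 1 library, each of old libraries 1 to 4 and young libraries 2 to 6, with a highest adjusted p of 0.0794. Dbp was at 79.9, 47.0 and 52.3 CPM in the controls and at 52.2, 89.8 and 62.3 CPM in G93A, a log2FC of 0.19 (SE 0.24, adjusted p = 0.565) that turned to -0.05 without G93A library 2. Dbp shares 539 exon bases with Sphk2 on the opposite strand. Sphk2, also looked up afterwards, had a log2FC of 0.00 in aging (SE 0.073) and 0.08 in the disease comparison (SE 0.12).

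The old libraries fell into 2 sets of 4 on several members, and the sets followed the sample numbers: old libraries 1 to 4 have consecutive numbers. Per2 was at 25.8, 35.9, 35.3 and 30.1 CPM in old libraries 1 to 4 and at 17.5, 18.8, 14.0 and 14.9 CPM in old libraries 5 to 8. Per1 was at 72.8, 76.97, 68.8 and 65.9 CPM in the first 4 and at 52.8, 53.8, 49.3 and 30.6 CPM in the rest. Per3 followed at 41.7, 52.1, 46.0 and 46.4 CPM against 36.02, 35.8, 34.03 and 29.2 CPM. Arntl ran the other way: old libraries 1 to 4 held 12.1, 10.9, 11.97 and 12.5 CPM and old libraries 5 to 8 held 18.1, 16.04, 13.2 and 18.7 CPM. Dbp, above, and Cry2 (93.5 to 101 against 73.7 to 90.7 CPM) did not overlap between the sets either. Clock, Cry1, Nr1d1 and Nr1d2 overlapped. How many of all genes part between these sets was not counted, so the split cannot be read as particular to the clock members. The summed level of 6 glucocorticoid-responsive genes also differed without overlap, at 442, 570, 392 and 388 CPM in old libraries 1 to 4 and at 344, 323, 304 and 292 CPM in old libraries 5 to 8. The young libraries held 348 to 573 CPM of this sum. The summed level of the clock loop partners, listed below, parted too. It was 856, 877, 857 and 871 CPM in old libraries 1 to 4 and 781, 761, 776 and 745 CPM in old libraries 5 to 8. The sums of the turnover, rhythmic output, temperature-responsive and immediate early genes, also listed below, overlapped between the sets. The sets were noticed in the members' own levels and were listed as the 4 old libraries lowest in Arntl, which are libraries 1 to 4, so the separation is a description and for Arntl is fixed by that choice. No test was made between sets that the labels do not define, and the part of collection time, of glucocorticoid signals, of sample handling or of age within 18 to 24 months was not tested.

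The young group had a like pattern in fewer libraries. Young library 7 had the lowest Arntl (10.5 CPM) and the highest Dbp (80.4 CPM), Per2 (26.5 CPM), Per3 (47.0 CPM) and Nr1d2 (158 CPM) of the 8, and young library 8 had the next lowest Arntl (12.4 CPM). The sample number of library 8 lies apart from those of the other young libraries. Over the 8 young libraries Per2 and Per3 varied together (r = 0.93, rho = 0.98, exact permutation p = 0.000322 and 0.000397, adjusted p = 0.0207 and 0.0357), and r was 0.99 without the 2 libraries farthest from the median of Per2. Per3 and Dbp gave r = 0.84 and rho = 0.93 (exact permutation p = 0.000918 and 0.00223, adjusted p = 0.0207 and 0.0587), and r = 0.69 without the 2 farthest. Arntl against Dbp gave r = -0.80 and rho = -0.52 (exact permutation p = 0.0161 and 0.197, adjusted p = 0.0871 and 0.432), and -0.33 without young libraries 7 and 8, so the relation rested on those. These are 3 of 90 relations tested, 45 in each age group. By r, 2 passed in the young and 6 in the old. By rho, only Per2 with Per3 in the young passed. The smallest adjusted p by rho in the old was 0.0587 (exact permutation). Because the old libraries form the separate sets described above, the r of single pairs of members is not given for them.

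**Figure D3:**
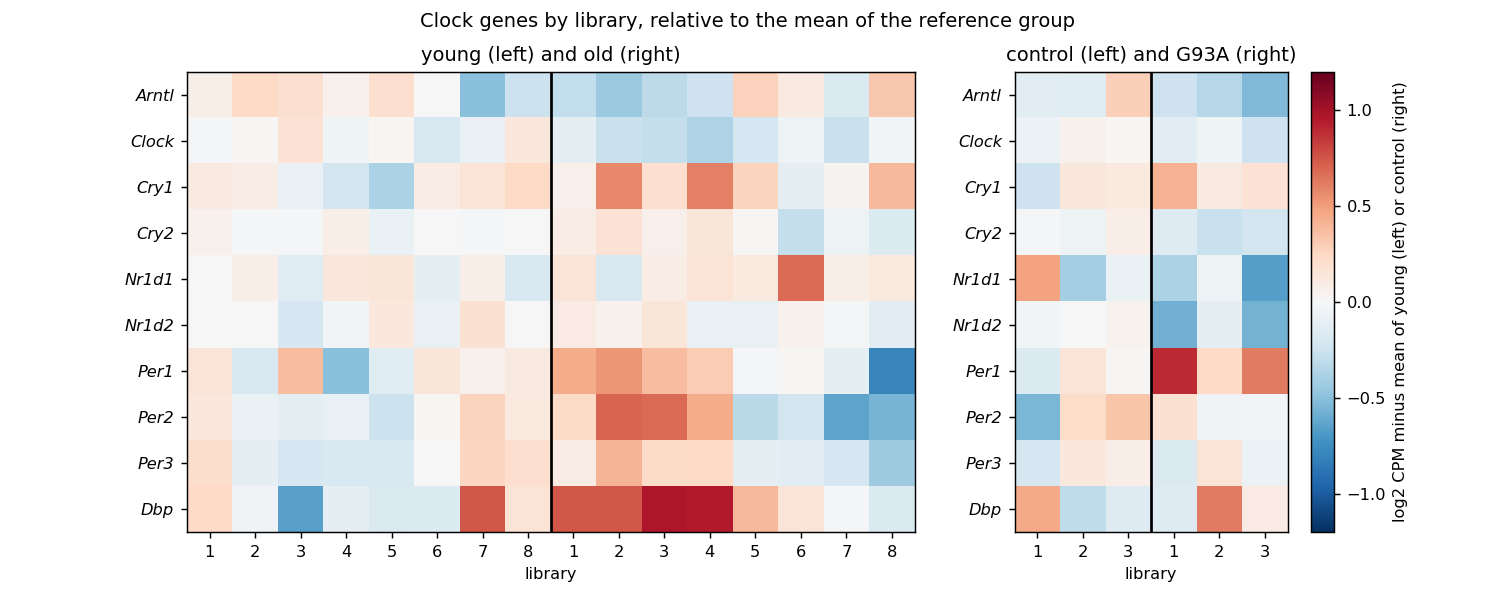
Log2 CPM of each clock gene in each library minus the mean of the young (left panel) or control group (right panel); columns are libraries by number and the black line parts the groups. Old libraries 1 to 4 and young library 7 are red for Dbp, Per2 and Per3 and blue for Arntl, and old library 6 is red for Nr1d1.

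In every library Arntl was below Dbp. The log2 CPM of Arntl minus that of Dbp, a difference within 1 library, had a mean of -1.67 (SD 0.63, n = 8) in the young, -2.24 (SD 0.69, n = 8) in the old, -2.04 (SD 0.53, n = 3) in the controls and -2.60 (SD 0.44, n = 3) in G93A. It was -2.71, -2.85, -2.95 and -2.87 in old libraries 1 to 4 and -1.78, -1.72, -1.83 and -1.17 in old libraries 5 to 8. Young library 7 (-2.91) fell with the first set, and the other young libraries ran from -2.09 to -0.82. The controls were at -2.64, -1.88 and -1.61 and the G93A libraries at -2.13, -3.01 and -2.67, and these groups overlapped.

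Variation between libraries of a group was summarised by edgeR's biological coefficient of variation (BCV), the relative SD beyond counting noise. In aging the BCV was 0.232 for Dbp, 0.218 for Per2, 0.187 for Per1, 0.146 for Arntl, 0.133 for Per3, 0.129 for Cry1 and 0.115 for Nr1d1, where the median of all genes was 0.0879. Dbp was thus more variable than 95.5% of all genes tested and Per2 than 94.5%. Clock (0.0745), Nr1d2 (0.0729) and Cry2 (0.0726) were less variable than the median gene. With G93A and control libraries the median gene was at 0.120; Dbp (0.204), Nr1d1 (0.194) and Per2 (0.176) led, and Clock (0.0879) and Cry2 (0.0834) were again low.

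**Figure D4:**
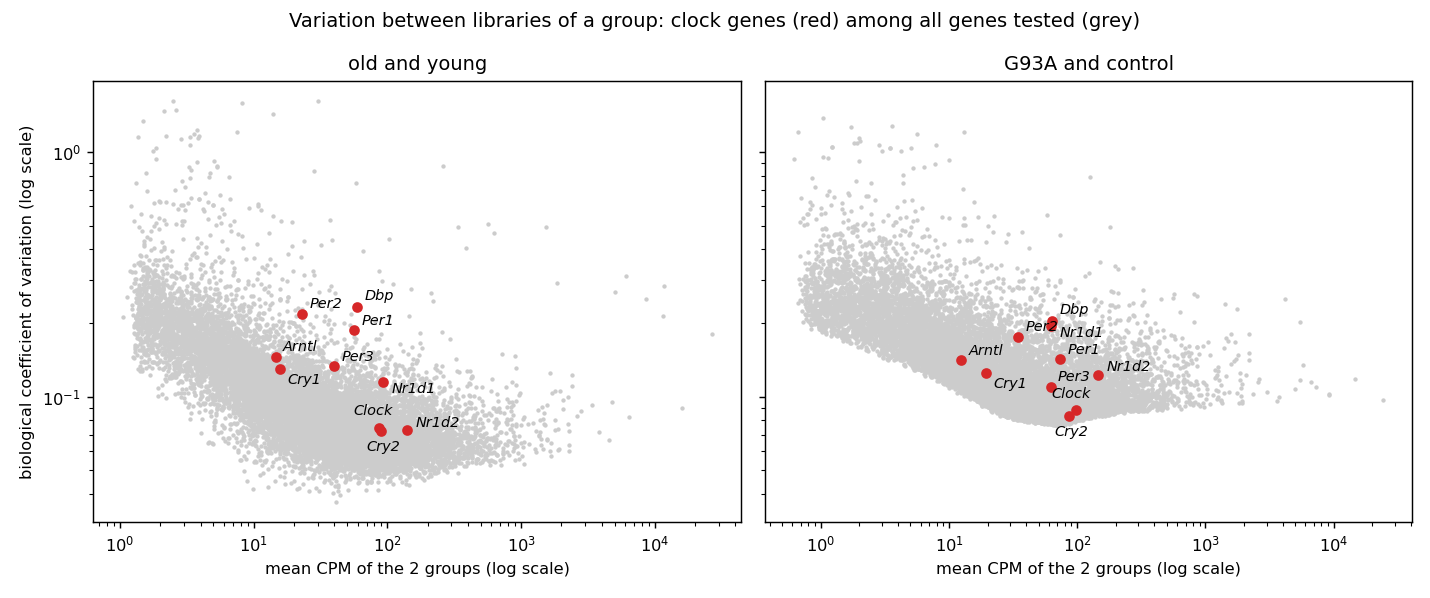
Biological coefficient of variation against mean CPM, both on log scales, for all genes tested (grey) and the clock genes (red) in the aging (left) and disease (right) fits. Dbp, Per2 and Per1 lie high among genes of their level in aging, and Clock, Cry2 and Nr1d2 lie within the mass.

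Genes whose levels followed a member between libraries were ranked by Pearson's r with Dbp and with Arntl over the 16 aging libraries, with each group's mean subtracted; this is a description, since the libraries share their sets and no p was computed. Of 13645 genes, those closest to Dbp were Per3 (r = 0.88), Tef (0.84), Wdsub1 (0.82), Per2 (0.82) and Cables1 (0.82). Tef encodes another PAR bZIP protein that binds the same D-box as DBP. Ciart, a clock-controlled repressor, came at rank 6 (0.81) and Bhlhe41, which encodes the E-box repressor DEC2, at rank 11 (0.78). The genes most opposed to Dbp were Mmp14 (-0.81), Alg13 (-0.81), Wwtr1 (-0.81), Ankrd34a (-0.80) and Zfp422 (-0.78), with Arntl at rank 12 from the lowest (-0.76) and Npas2, a CLOCK paralogue, at rank 14 (-0.75). Closest to Arntl were Bach2 (0.86), Tmem130 (0.80), Stk24 (0.79), BC048403 (0.79) and BC055324 (0.77), and Npas2 was at rank 16 (0.74). Most opposed to Arntl were Adssl1 (-0.85), Rcbtb1 (-0.85), Per3 (-0.82), Bhlhe41 (-0.82) and Dgat2 (-0.82). On the deposited log2 FPKM values several of these were much weaker: Bach2 with Arntl 0.06, Bhlhe41 with Arntl -0.35, Alg13 with Dbp -0.33 and Tef with Dbp 0.54, while Per3 kept 0.81 with Dbp and -0.74 with Arntl. Genes of other lists also ranked high: Cirbp, the cold-induced RNA-binding gene, at rank 16 with Dbp (0.77) and rank 12 from the lowest with Arntl (-0.79), and the heat-shock gene Hspa1b at rank 35 with Arntl (0.70). Over the 16 libraries Nr1d1 did not rank with these genes (r = -0.12 with Dbp and 0.34 with Arntl). These include old library 6, whose Nr1d1 stood apart. Within the young alone r was 0.26 with Dbp and 0.16 with Arntl.

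The same ranking within the 8 young libraries alone, added after the data were seen, put Ciart last of 13645 genes by r with Arntl (-0.99) and Npas2 at rank 8 from the highest (0.94). Within the old libraries alone both stood much less far out by r with Arntl. There Ciart was at rank 530 from the lowest (-0.68) and Npas2 at rank 1110 from the highest (0.53). Ciart in young library 7 was at 19.4 CPM and in library 8 at 15.9 CPM, where the other young libraries held 11.6 to 13.5 CPM. Npas2 was at 5.89 and 8.73 CPM in young libraries 7 and 8 and at 10.4 to 13.3 CPM in the rest. Per1 in the young had an r of -0.10 with Dbp.

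**Figure D5:**
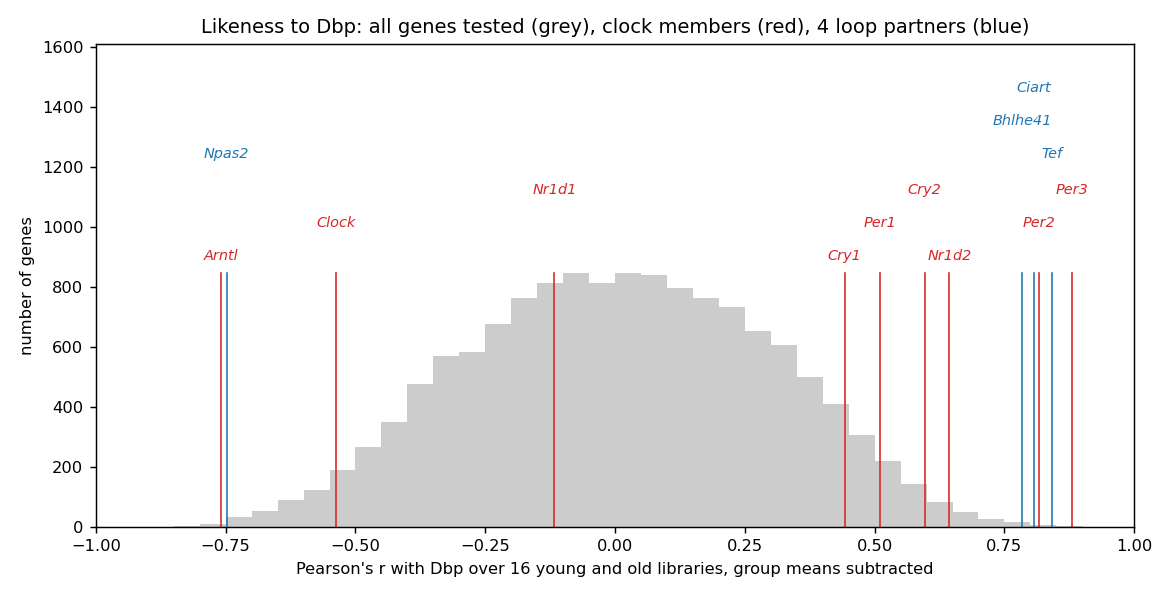
Histogram of Pearson's r with Dbp for all 13645 other genes tested, over 16 young and old libraries with group means subtracted; red lines are the clock members and blue lines the 4 loop partners named beside it in the text. Per3, Tef, Per2, Ciart and Bhlhe41 stand at the right edge (0.78 to 0.88) and Arntl and Npas2 at the left (-0.76 and -0.75).

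The rest of the clock machinery was read from lists of 12 loop partners and 8 genes of clock protein turnover. Of the loop partners, 4 rose and 1 fell in aging, where 26.4% of all genes were called in either direction. Bhlhe40 (log2FC 0.31, SE 0.051, adjusted p = 8.40e-05, edgeR) and Bhlhe41 (0.34, SE 0.061, adjusted p = 0.00019), the DEC repressors, had the smallest p. In the disease comparison 4 rose and 1 fell, and the DEC genes again had the smallest p, with Bhlhe41 at 0.65 (SE 0.12, adjusted p = 0.0053) and Bhlhe40 at 0.55 (SE 0.11, adjusted p = 0.00595). Bhlhe41 was at 94.9 to 111 CPM in the young, at 108 to 147 CPM in the old, at 86.2 to 101 CPM in the controls and at 120 to 162 CPM in G93A. The share of all genes called in the disease comparison was 33.9%. The list's median log2FC was 0.06 in aging and -0.06 in the disease comparison.

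Among turnover genes, which are Timeless and genes of the kinases and ubiquitin ligases that set the life of PER and CRY, 1 of 8 fell in aging, Gsk3b, a kinase of several clock proteins (-0.15, SE 0.040, adjusted p = 0.00756, edgeR). The disease comparison gave 2 that rose and 3 that fell. For this list and the next, the shares of all genes called were 26.4% in aging and 33.9% in the disease comparison. Gsk3b (-0.53, SE 0.11, adjusted p = 0.00696) and Btrc, the F-box protein that marks PER for degradation (-0.47, SE 0.11, adjusted p = 0.0103), fell, and Timeless rose (0.98, SE 0.23, adjusted p = 0.0112). The 5 widely rhythmic output genes gave 1 that rose in aging, Tspan4 (0.62, SE 0.14, adjusted p = 0.00164). In the disease comparison 3 rose and 1 fell, among them Tspan4 (2.06, SE 0.25, adjusted p = 0.000728), Usp2 (0.85, SE 0.17, adjusted p = 0.00726) and, lower, Wee1 (-0.48, SE 0.11, adjusted p = 0.0123).

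Signals that reach Per genes from outside the clock were read from 3 further lists. Of 6 glucocorticoid-responsive genes, 1 rose and 2 fell in aging (Fkbp5 0.22, adjusted p = 0.0355; Errfi1 -0.18, adjusted p = 0.0290, and Tsc22d3 -0.24, adjusted p = 0.0312, edgeR), and 1 rose in the disease comparison, Pdk4 (1.25, adjusted p = 0.0420). Of 6 temperature-responsive genes 2 rose and 2 fell in aging: the cold-induced RNA-binding genes Rbm3 (0.66, adjusted p = 2.19e-05) and Cirbp (0.50, adjusted p = 4.40e-05) rose and the chaperone gene Hsph1 fell (-0.44, adjusted p = 3.63e-06). Hsph1 (-0.63, adjusted p = 0.00679) and Rbm3 (0.67, adjusted p = 0.0147) were also the 2 called in the disease comparison. Of 9 activity-induced immediate early genes, 8 were tested in aging, where Fos (0.56, adjusted p = 0.000266) and Junb (0.61, adjusted p = 0.00056) rose and Arc fell (-0.27, adjusted p = 0.0407). For G93A 3 rose, among them Egr2 (2, 2 and 3 counts in the controls and 112, 34 and 85 in G93A, adjusted p = 0.000339) and Junb (1.65, adjusted p = 0.00133), and Arc fell (-0.99, adjusted p = 0.00118). Together 7 of the 21 genes of these lists were called in the disease comparison, in both directions, next to 33.9% of all genes. In aging, where 26.4% of all genes were called, the genes not called were 3 of 6, 2 of 6 and 5 of 8 in these lists. Whether these shares differ from those of all genes was not tested. Per1 and the summed glucocorticoid-responsive level had the same order of libraries within each group there, a sum of 309, 671 and 483 CPM in control libraries 1 to 3 and of 1123, 349 and 535 CPM in G93A libraries 1 to 3. With 3 libraries a group this order is a description, and the part of these signals in the level of Per1 was not tested.

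The cell make-up of the cords moved with both comparisons, and in whole tissue fewer cells of a type and less RNA per cell cannot be told apart. The summed level of 6 microglial markers (median 204 CPM in the young and 431 in the old) ranged from 194 to 214 CPM in the young and from 303 to 502 CPM in the old, and 5 of the 6 rose. It ranged from 205 to 248 CPM in the controls and from 707 to 1337 CPM in G93A, with 4 of 6 called higher. The 6 astrocyte markers summed to 5239 to 5777 CPM in the controls and to 10822 to 17296 CPM in G93A, with 5 called higher. The 6 neuron markers summed to 5913 to 6216 CPM in the controls and to 2287 to 4068 CPM in G93A, with 5 called lower, and 3 of 5 motor neuron markers fell (181 to 208 against 91.4 to 105 CPM). In aging, astrocyte markers gave 3 higher and 1 lower, neuron markers 2 lower and motor neuron markers none of 5. No endothelial or erythrocyte marker was called in the disease comparison. Endothelial markers gave 1 of 4 lower and erythrocyte markers none of 5 in aging. At an unadjusted p under 0.05, the erythrocyte list held 1 gene in aging, Alas2, and the motor neuron list 0; in the disease comparison the endothelial and erythrocyte lists held 0. Of the Schwann cell markers Pmp22 was called higher in both comparisons, and skeletal muscle markers were below the filter in aging, with 1 of 4 tested and not called in the disease comparison. Beside these marker counts, 26.4% of all genes were called in aging and 33.9% in the disease comparison, in either direction. The human transgene was not analysed here. The part of cell composition in the changes of Clock, Dbp, Per1 and Nr1d2 was not tested.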

How the data were processed

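RNA was extracted from whole spinal cords with Trizol and Qiagen columns and sequenced on an Illumina HiSeq. Reads were aligned with STAR and summarised with RSEM (SAMtools 1.3 is also named in the submitters' processing notes) on mm10 with the Ensembl annotation. The authors deposited RSEM expected counts, already whole numbers, for 21995 genes, of which 21842 were paired with symbols through the reference annotation, and log2 values of FPKM plus 1. In 304 cases the deposited log2 FPKM value was above 0 where the count was 0. All 22 columns were used, mapped to groups by name; they carry no replicate numbers. No pair of libraries in a group was a duplicate (lowest chi-square per degree of freedom 2.57). Nothing in the labels says more about how replicates were obtained than that they are replicate cords, so p-values measure the spread between these samples.

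Counts were filtered with filterByExpr (minimum count 10, minimum total 15), scaled by TMM and tested with edgeR 4.0.16 in R 4.3.3, for each comparison on its own, with p-values adjusted by Benjamini-Hochberg over every gene of the fit. Log2 CPM used a prior count of 2. Alternatives were RLE size factors, DESeq2 1.42.0, limma 3.58.1 on the deposited log2 FPKM, other filters, 1 fit of all groups, a log2 fold change beyond 1, and leaving out each library. Scripts were tested on simulated data. Correlations, promoters and plots used Python 3.11.15, scipy 1.17.1 and matplotlib 3.10.9; gene positions and overlaps are from GENCODE on GRCm38. The members and lists were chosen with earlier results of these data known. Named genes are all members, at most 3 genes of each list with the smallest p in a comparison, and the 5 highest and 5 lowest r with Dbp and Arntl; Ciart, Npas2, Nr1d1, Cirbp, Hspa1b, Thra and Sphk2 were added where a result touched them. Results of 2 listed genes are not reported here. Precision is limited by depth (5078092 to 13219797 counts) and, in the disease comparison, by 3 libraries a group.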

Additional observations from a re-analysis of the deposited data

Results flagged for a closer look

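Among the 20 sets of 8 libraries tested for a sample that stands apart (10 members in the young and the old), Nr1d1 in old library 6 did, at 139.6 CPM against 75.9 to 97.1 CPM in the other old libraries. On the log2 scale the gap was 0.596 of the group's range, past Dixon's 95% critical value for 8 samples; about 1 in 20 such sets is expected by chance. Its library also stood apart on other measures: it had 6279 genes at 0, the most of the 16 aging libraries, a TMM factor of 0.92, the highest neuron marker sum (5718 CPM) and the lowest microglial sum (303 CPM) of the old group, and a chi-square per degree of freedom of 11.9 to 36.2 against each other old library. The part of this in Nr1d1 was not tested. Without it the aging log2FC of Nr1d1 was 0.07 in place of 0.16, and neither was called.

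The interaction term in edgeR, called in 25.8% of all genes, was called for Nr1d1 (-0.58, adjusted p = 0.0425) and for Nr1d2 (-0.43, adjusted p = 0.00915). Nr1d1 kept the call in 12 of 22 fits without 1 library and lost it without old library 6, flagged above. Nr1d2 kept it in 20 of 22. All 3 G93A libraries were below all 3 controls for Nr1d2; for Nr1d1 the groups overlapped.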

How the results depend on the processing

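Of 2 members called in aging, 1 was called with DESeq2, 1 with limma on log2 FPKM (2290 genes in all, from 3600) and 0 once a log2FC beyond 1 was asked (303 genes). Without 1 library the count was 1 to 3 (3109 to 4379 genes). In the disease comparison limma gave 1 of 2 members, the fold rule 0 (1395 genes, from 4877), and leaving out 1 library 0 to 2 members (2353 to 6648 genes); the count was 0 without control library 1, control library 3 or G93A library 3, where 1 arm had 2 libraries. The interaction gave 0 to 3 members, 0 without G93A library 1 or 3. Of the pairs of members past an adjusted p of 0.05 by r, 8 by log2 CPM became 5 by log2 FPKM. Of the 20 genes named as most or least like Dbp and Arntl, 4 were again among the 5 at their end by log2 FPKM. RLE size factors and both other filters changed no call of a member; the fit of all 4 groups added Cry2 in the disease comparison. No called change turned its sign under any alternative. The cause of these shifts was not tested. No paired analysis was possible because the columns carry no replicate numbers. The lowest count behind any value of a member was 64, for Arntl in a young library.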
